A study of Mus musculus with 12 samples.

Results

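The 50 genes described here carry out or control cell division, and they were followed across 3 genotypes of mouse forebrain endothelial cells. They are 15 S phase genes, 17 mitosis genes, 16 genes for cyclins, cyclin-dependent kinases (CDKs) and CDK inhibitors, and the genes Myc and Mycn, chosen by name from 49315 genes in the count tables. All 50 matched a gene identifier, all passed the filter on low counts, and the lowest mean count of any was 172 reads, for Cdkn2c. RNA-seq was made from CD31+ endothelial cells sorted from forebrains of E15.5 embryos, with 4 WT, 4 Gpr124ΔC/ΔC and 4 Gpr124-/- embryos and 1 library per embryo. In Gpr124ΔC/ΔC embryos, both copies of Gpr124 (an adhesion G protein-coupled receptor that co-activates WNT7 signaling in brain endothelium) carry a V5 tag and a stop codon ahead of the region for the intracellular domain. In Gpr124-/- embryos, both copies carry a lacZ null allele. Each mutant came from its own heterozygous intercross, both mutations are present in every cell of the embryo, and the sort took CD31+ cells that lacked CD140b, CD45 and a dead-cell dye. In bulk RNA of this kind, a larger share of dividing cells and more RNA per dividing cell cannot be told apart.

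A dividing cell copies its DNA in S phase and separates the copies in mitosis. Before S phase, D-type cyclins with CDK4 or CDK6 and then cyclin E with CDK2 release E2F factors, which switch on genes for DNA replication. Cyclin B with CDK1 then drives entry into mitosis, and CDK inhibitors such as those encoded by Cdkn1a, Cdkn1b and Cdkn1c hold these kinases back. MYC-family factors are known to promote cell growth and division, and sprouting brain vessels in the embryo grow by endothelial division.

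Total counts ranged from 13877572 to 22551163 reads per library. Gpr124 itself, listed as Adgra2, had a TPM (transcript abundance scaled for gene length and library) of 38.6 ± 10.4 (SD, n = 4) in WT, 43.4 ± 13.7 in Gpr124ΔC/ΔC and 4.86 ± 0.988 in Gpr124-/-. All 14 endothelial markers had a mean TPM above 1, and their summed TPM was 14000 to 17800 in WT, 9260 to 14600 in Gpr124ΔC/ΔC and 8750 to 10600 in Gpr124-/-. Most of that sum and of its fall was Cldn5, with mean TPM of 9180, 4990 and 2170, while the 14 went both ways by the test, with 4 higher and 3 lower in Gpr124-/- and 1 each way in Gpr124ΔC/ΔC. The 7 haemoglobin genes summed to 7080 to 11800 TPM in WT and 5440 to 9910 in Gpr124ΔC/ΔC, but to 17800 to 54300 in Gpr124-/-, highest in library ME1. The 13 macrophage markers summed to 177 to 349 TPM in WT, 208 to 342 in Gpr124ΔC/ΔC and 455 to 954 in Gpr124-/-, with 6 of them at a mean TPM under 1 and 2, Pf4 and P2ry12, higher by the test. Pericyte markers summed to 42.6 to 99.1 TPM in WT, 23.4 to 49.4 in Gpr124ΔC/ΔC and 44.5 to 53.6 in Gpr124-/-, and in Gpr124ΔC/ΔC 1 of 10 was lower by edgeR and 4 by DESeq2. Neural progenitor markers summed to 217 to 253 TPM in WT, 194 to 229 in Gpr124ΔC/ΔC and 245 to 305 in Gpr124-/-, so that the 2 mutants did not overlap. By the test against WT, 0 of the 13 tested were higher and 2 were lower in each mutant. Neuron and fibroblast markers summed to at most 165 and 98.8 TPM in any library. The part of these other RNAs in the results below was not tested. A gene of 57 bases, Gm23935, took 12.5% of TPM in WT library JE6 and 14.1% in Gpr124ΔC/ΔC library JE3, against 1.22% to 3.04% in the other 10, which lowers every other TPM value in those 2 libraries. Values per library are therefore given as CPM (reads of a gene scaled to the library total), on library sizes adjusted by TMM, where Gm23935 took at most 0.325% of reads, and TPM is kept for levels between genes. Embryo labels begin with J, K, L or M, whose meaning the sources used here do not give, and no letter is shared by the 2 mutants.

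Across all 3 comparisons, expression of the cell cycle genes moved by small amounts. In Gpr124-/- against WT, 18 of the 50 passed the test (edgeR quasi-likelihood test, adjusted p under 0.05), 15 higher and 3 lower, where 19.8% of the 16637 genes tested passed, 10.5% higher and 9.32% lower. In Gpr124ΔC/ΔC against WT, 6 of 50 passed, 4 higher and 2 lower, where 4.09% of all genes passed, 1.85% higher and 2.24% lower. In Gpr124-/- against Gpr124ΔC/ΔC, 2 of 50 passed, both higher, against 8.82% of all genes (4.93% higher, 3.89% lower). Among the 12024 genes with a mean count of at least 50, a level all 50 members reached, 11.8% were higher in Gpr124-/- and 2.28% in Gpr124ΔC/ΔC, each against WT. Only Mycn in Gpr124-/- also exceeded an absolute log2 fold change of 1, the size the study used, which 9.88% of all genes did with their p in Gpr124-/- and 1.92% in Gpr124ΔC/ΔC. The median log2 fold change of the 50 was 0.25 in Gpr124-/- and 0.18 in Gpr124ΔC/ΔC, beside -0.01 and 0.01 over all genes tested. With the letter as a term of the model, the count of 18 became 3, where 604 of 16637 genes passed higher and 421 lower. The count of 6 became 7, where 421 genes passed higher and 560 lower. The count of 6 was 2 without WT library LE6 and 3 without JE6, KE8, JE4 or LE2, and the count of 2 was 0 without JE4, LE5, ME1 or ME4 and 1 without JE1, JE6, LE6, JE3, LE2 or ME5.

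**Figure D1:**
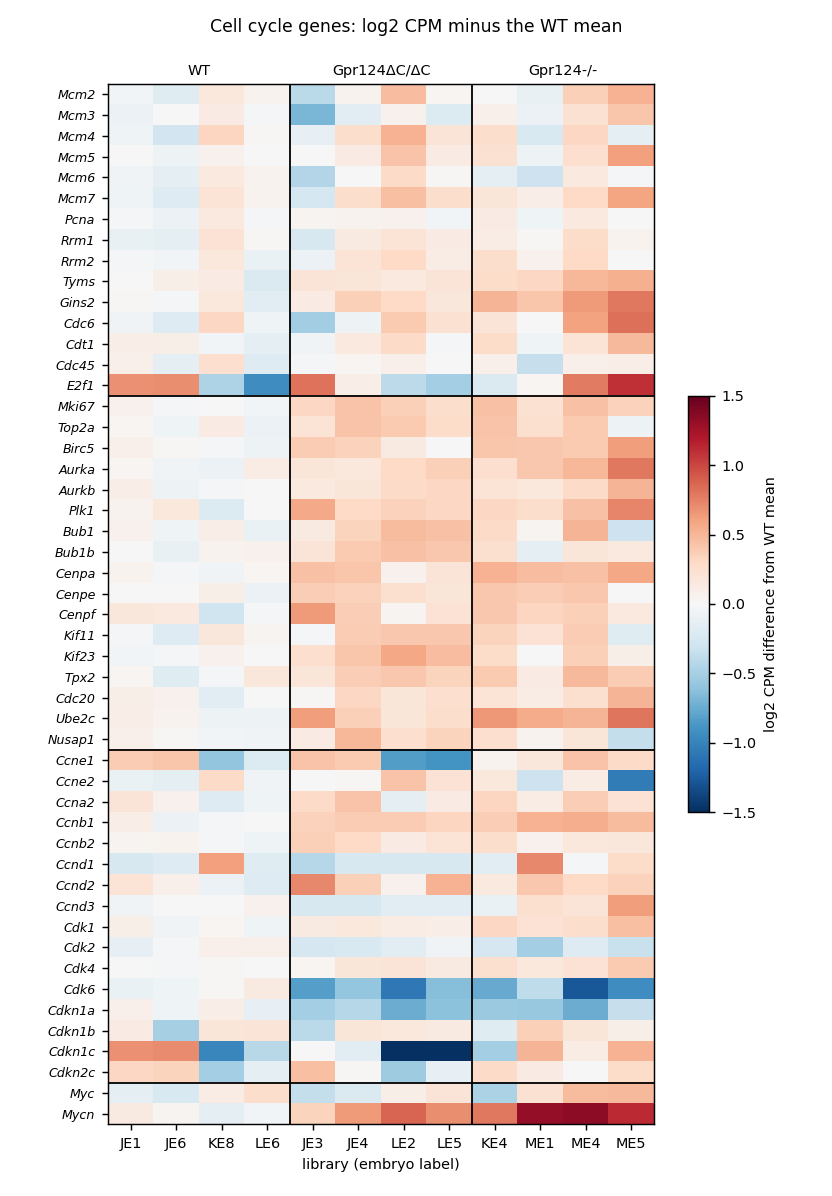
Heat map of the 50 cell cycle genes (rows, in the order S phase, mitosis, cyclins, CDKs and inhibitors, MYC genes, with lines between groups) in the 12 libraries (columns, by genotype), colored by log2 CPM minus the mean of the 4 WT libraries and capped at 1.5. The mitosis block is shaded above WT in nearly all mutant cells, the S phase block is mixed, and Cdkn1a, Cdk6 and Mycn stand apart in both mutants.

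The 15 S phase genes encode the replicative helicase and its loaders (Mcm2 to Mcm7, Gins2, Cdc45, Cdc6, Cdt1), the sliding clamp Pcna, enzymes of nucleotide supply (Rrm1, Rrm2, Tyms) and the factor E2f1. In Gpr124-/-, 2 of the 15 rose, Gins2 and Tyms, and none fell (13.3% against 10.5% of all genes higher). The median log2 fold change was 0.21, from -0.07 for Mcm6 to 0.60 for Gins2. With the letter as a term, neither call held and the median was -0.02, with 0.36 for Gins2 and 0.16 for Tyms. In Gpr124ΔC/ΔC, none of the 15 passed in edgeR, none had an unadjusted p under 0.05, and none passed in DESeq2 or limma. There the median was 0.06, from -0.23 for Mcm3 (adjusted p = 0.57, edgeR) to 0.24 for Gins2 (adjusted p = 0.382, edgeR). Between the mutants none passed in edgeR or limma and 1 in DESeq2, with 3 unadjusted p under 0.05 in edgeR, and log2 differences ran from -0.16 for Mcm4 to 0.42 for E2f1.

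Gins2, a subunit of the GINS complex of the helicase, had CPM of 20.1, 19.6, 22.1 and 17.8 in WT, 21.6, 25.5, 24.5 and 22.4 in Gpr124ΔC/ΔC and 28.4, 26.6, 31.2 and 34.7 in Gpr124-/-. On CPM the 4 Gpr124-/- libraries lay above all 8 others (on TPM they lay above WT but overlapped Gpr124ΔC/ΔC), whereas Gpr124ΔC/ΔC and WT overlapped. Its log2 fold change was 0.60 (SE 0.12, adjusted p = 0.00241, edgeR) in Gpr124-/-. Gins2 shares 67.3% of its exon bases with Gse1 on the opposite strand, and whether counting used strand is not given in the sources used here.

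Tyms, which makes thymidylate for DNA synthesis, had CPM of 79.9, 84.5, 86.9 and 68.7 in WT, 91.5, 90.4, 88.4 and 91.0 in Gpr124ΔC/ΔC and 96.8, 99.2, 113 and 115 in Gpr124-/-. On CPM the 3 genotypes did not overlap, in the order WT, Gpr124ΔC/ΔC, Gpr124-/-, whereas on TPM Gpr124ΔC/ΔC overlapped both others. Tyms had log2 fold changes of 0.41 (SE 0.09, adjusted p = 0.007, edgeR) in Gpr124-/- and 0.18 (SE 0.09, adjusted p = 0.444) in Gpr124ΔC/ΔC.

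Pcna had CPM of 145, 139, 164 and 145 in WT, 152, 153, 154 and 144 in Gpr124ΔC/ΔC and 162, 142, 164 and 148 in Gpr124-/-. All 3 genotypes overlapped. Its log2 fold change was 0.05 (95% interval -0.12 to 0.22) in Gpr124-/- and 0.03 (-0.14 to 0.20) in Gpr124ΔC/ΔC, so larger changes lie outside these intervals. Pcna also has a named copy with reads, Pcna-ps2, at a mean count of 122.

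Libraries of 1 genotype differed from each other across the S phase genes. Library JE3 was the lowest Gpr124ΔC/ΔC library for 12 of the 15 S phase genes and ME1 the lowest Gpr124-/- library for 12, while KE8 was the highest WT library for 13. Mcm3 had CPM of 192, 203, 222 and 202 in WT, 127, 181, 214 and 177 in Gpr124ΔC/ΔC and 215, 192, 240 and 272 in Gpr124-/-. E2f1 levels went with the label letter in WT and Gpr124ΔC/ΔC, with CPM of 31.9 and 32.2 in the J libraries of WT against 14.0 and 10.1 in KE8 and LE6, and 34.9 and 21.0 against 14.8 and 13.6 between the J and L libraries of Gpr124ΔC/ΔC.

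Replication promoters are known to carry E2F sites. RefSeq promoters (GRCm38.p6, 250 bases before to 50 after each start) were found for 40 of the 50 members and searched on both strands for 4 motifs. An E2F site was spelled TTGGCGC or TTCGCGC. The other motifs are spelled out beside their counts, and the box named CCAAT has the letters of its name. The 2 letterings of the E2F site can overlap each other, and an E2F site on the opposite strand can run into a CCAAT box. An E2F site was in 5 of 14 S phase promoters (35.7%), against 3.89% of all 32851 promoters. The stretch before the start of Mcm6, chr1:128359706-128359955 on the minus strand, is shown because E2F sites there lie in overlapping pairs, read 5′ to 3′ in the direction of the gene with E2F sites and CCAAT boxes in capitals.

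Mcm6: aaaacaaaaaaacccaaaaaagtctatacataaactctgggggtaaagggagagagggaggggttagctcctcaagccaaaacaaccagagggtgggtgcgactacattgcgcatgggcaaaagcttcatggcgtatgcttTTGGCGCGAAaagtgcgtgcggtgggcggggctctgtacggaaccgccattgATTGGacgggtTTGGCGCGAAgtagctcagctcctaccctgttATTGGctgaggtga

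The E2F sites of Mcm6 begin 109, 106, 46 and 43 bases before the start. Mcm6 expression itself stayed within overlapping ranges, with log2 fold changes of -0.07 (SE 0.14) in Gpr124-/- and -0.01 (SE 0.14) in Gpr124ΔC/ΔC.

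The 17 mitosis genes encode kinases (Aurka, Aurkb, Plk1, Bub1), checkpoint and chromosomal passenger proteins (Bub1b, Birc5), centromere proteins (Cenpa, Cenpe, Cenpf), spindle motors and binders (Kif11, Kif23, Tpx2, Nusap1), activators and enzymes of the anaphase-promoting complex (Cdc20, Ube2c), the topoisomerase Top2a and the proliferation marker Mki67. In Gpr124-/-, 9 of the 17 rose and none fell, 52.9% against 10.5% of all genes higher. With the letter as a term, 2 passed, Ube2c of these 9 and Cenpf, while the median log2 fold change of the 17 was 0.33 against 0.30 without it. In Gpr124ΔC/ΔC, 2 of the 17 rose, Mki67 and Kif23, 11.8% against 1.85% of all genes higher, while 15 had an unadjusted p under 0.05. All 17 had a log2 fold change above 0 in each mutant, with medians of 0.30 in Gpr124-/- and 0.32 in Gpr124ΔC/ΔC beside -0.01 and 0.01 over all genes. The same WT libraries serve both comparisons.

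CPM of all 4 mutant libraries exceeded all 4 WT libraries for 8 of the 17 in Gpr124-/- and for 13 of the 17 in Gpr124ΔC/ΔC. On TPM as deposited these counts were 7 and 8, and on TPM without Gm23935 they were 8 and 15. Over all genes tested, the order on CPM held for 11.1% and 5.27%, and the opposite order for 11.7% and 6.03%. None of the 17 passed between the 2 mutants in edgeR, DESeq2 or limma, although 6 had an unadjusted p under 0.05 in edgeR, and the median log2 difference was 0.02. Its range ran from -0.26 for Nusap1 (adjusted p = 0.242, edgeR) to 0.27 for Ube2c (adjusted p = 0.147, edgeR).

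Ube2c, the ubiquitin-conjugating enzyme of the anaphase-promoting complex, rose most in Gpr124-/-. Its CPM was 114, 110, 101 and 101 in WT, 165, 137, 121 and 127 in Gpr124ΔC/ΔC and 167, 157, 152 and 186 in Gpr124-/-. Every mutant library was above every WT library, and the 2 mutants overlapped through JE3. The log2 fold change was 0.64 (SE 0.11, adjusted p = 0.000938, edgeR) in Gpr124-/- and 0.37 (SE 0.11, adjusted p = 0.0821) in Gpr124ΔC/ΔC.

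Mki67 had CPM of 155, 147, 149 and 145 in WT, 185, 200, 192 and 179 in Gpr124ΔC/ΔC and 203, 175, 202 and 190 in Gpr124-/-. Both mutants lay above WT without overlap and overlapped each other. Mki67 had log2 fold changes of 0.37 (SE 0.07, adjusted p = 0.00315, edgeR) in Gpr124-/- and 0.34 (SE 0.07, adjusted p = 0.0181) in Gpr124ΔC/ΔC. On TPM, means were 41.6 ± 2.80 in WT, 55.9 ± 6.18 in Gpr124ΔC/ΔC and 55.5 ± 6.04 in Gpr124-/- (SD, n = 4), and each mutant differed from WT by the exact two-sided permutation test at p = 0.0286, the smallest that 4 against 4 can give.

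Cenpa, the histone variant that marks centromeres, had CPM of 96.2, 90.8, 89.3 and 94.3 in WT, 126, 123, 96.7 and 106 in Gpr124ΔC/ΔC and 133, 127, 126 and 139 in Gpr124-/-. Both mutants lay above WT, and the mutants were apart on CPM only, where JE3 and ME4 round to the same value, and overlapped on TPM. Its log2 fold change was 0.50 (SE 0.09, adjusted p = 0.00167, edgeR) in Gpr124-/- and 0.29 (SE 0.09, adjusted p = 0.12) in Gpr124ΔC/ΔC. Kif23, a motor of the central spindle that is needed for cytokinesis, had CPM of 74.4, 75.5, 80.3 and 76.5 in WT, 91.4, 103, 115 and 106 in Gpr124ΔC/ΔC and 92.8, 76.6, 98.6 and 81.6 in Gpr124-/-. It rose in Gpr124ΔC/ΔC (log2 fold change 0.43, SE 0.10, adjusted p = 0.0239, edgeR), whereas Gpr124-/- overlapped WT (0.19, SE 0.10, adjusted p = 0.218).

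The other genes that rose in Gpr124-/- had log2 fold changes of 0.50 for Aurka, 0.46 for Birc5, 0.44 for Plk1, 0.35 for Tpx2, 0.30 for Aurkb and 0.30 for Cenpe, with SE between 0.09 and 0.12 and adjusted p between 0.00466 and 0.0476 (edgeR). The smallest log2 fold change there was 0.05 for Nusap1 (adjusted p = 0.843), and in Gpr124ΔC/ΔC it was 0.19 for Cdc20 (adjusted p = 0.442). Top2a, which untangles DNA, had CPM of 225, 211, 240 and 208 in WT, 255, 297, 289 and 266 in Gpr124ΔC/ΔC and 297, 261, 289 and 210 in Gpr124-/-. The Gpr124ΔC/ΔC libraries were all above WT and 3 of the 4 Gpr124-/- libraries were, but Top2a did not pass, at log2 fold changes of 0.32 (adjusted p = 0.141, edgeR) and 0.26 (adjusted p = 0.122).

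The Gpr124-/- embryos differed from each other across the mitosis genes. ME1 had the lowest median of the 4 (0.23, against 0.34 to 0.40), and was the lowest library for 7 genes and the highest for none. ME5 was the lowest for 6 genes, among them Bub1 (CPM 43.0 against 55.1 to 76.2), Top2a, Kif11, Cenpe and Nusap1, and the highest for 7, among them Ube2c, Aurka, Plk1 and Birc5. In ME4 and KE4, all 17 genes exceeded every WT library, whereas 12 did in ME1 and 11 in ME5. In Gpr124ΔC/ΔC, this count was 15 in JE3, 17 in JE4 and 16 in each of LE2 and LE5.

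**Figure D2:**
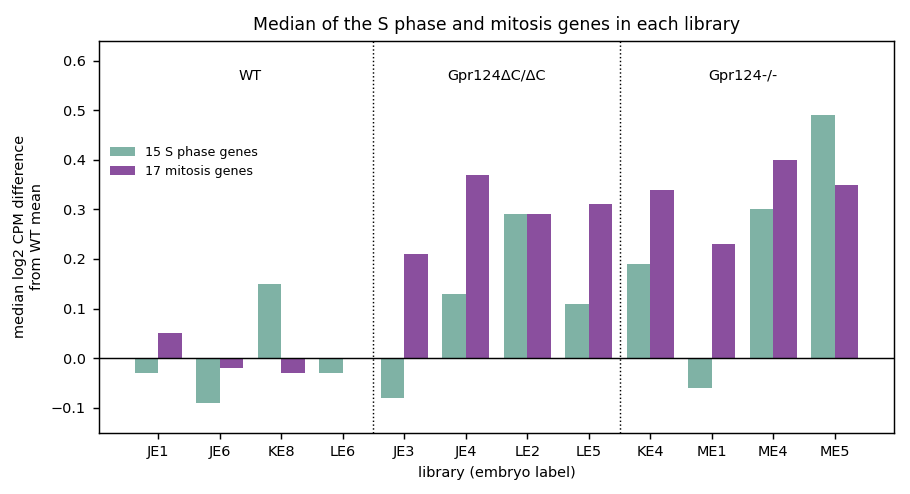
Bars give, for each library (x axis, by genotype), the median over the 15 S phase genes and over the 17 mitosis genes of log2 CPM minus the WT mean. The mitosis median was 0.21 to 0.40 in all 8 mutant libraries and -0.03 to 0.05 in WT, while the S phase median ran from -0.09 to 0.15 in WT and from -0.08 to 0.49 in the mutants.

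CHR elements, spelled TTTGAA or TTCGAA here, and CCAAT boxes are known to lie together in many mitotic promoters. A CHR element was in 12 of 15 promoters of mitosis genes (80.0%) against 19.2% of all promoters, a CCAAT box in 13 (86.7%) against 37.4%, and an E2F site in 1 (6.67%) against 3.89%. By comparison, a CHR element was in 3 of 14 S phase promoters (21.4%) and a CCAAT box in 10 (71.4%). The stretches before the starts of Mki67, chr7:135716380-135716629 on the minus strand, and Ube2c, chr2:164769679-164769897 on the plus strand, are shown because both genes rose in Gpr124-/-, with CHR elements and CCAAT boxes in capitals.

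Mki67: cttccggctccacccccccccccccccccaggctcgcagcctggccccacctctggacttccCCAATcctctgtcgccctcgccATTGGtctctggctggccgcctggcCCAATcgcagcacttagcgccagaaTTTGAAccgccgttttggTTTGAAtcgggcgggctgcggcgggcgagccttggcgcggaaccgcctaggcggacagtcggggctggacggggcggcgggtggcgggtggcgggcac
Ube2c: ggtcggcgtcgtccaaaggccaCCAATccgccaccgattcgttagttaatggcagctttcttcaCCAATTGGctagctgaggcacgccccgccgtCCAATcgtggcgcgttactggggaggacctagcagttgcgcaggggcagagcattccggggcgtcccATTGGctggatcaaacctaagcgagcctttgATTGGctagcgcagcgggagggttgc

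In Mki67, CHR elements begin 116 and 98 bases before the start and 3 CCAAT boxes lie further upstream, with an E2F site at 67 bases left in lower case. In Ube2c, 6 CCAAT boxes are in the stretch, 2 of which share bases on opposite strands, and the CHR element begins 29 bases before the start, past the last base printed. Birc5 rose in Gpr124-/- with none of these letters in its window, so the motifs describe the promoters and were not tested as a cause of the changes.

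**Figure D3:**
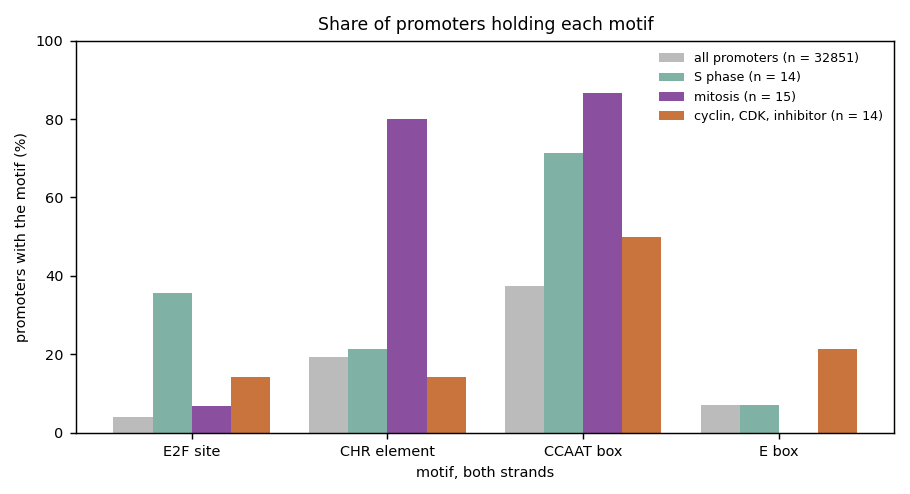
Bars give the percentage of promoters (250 bases before to 50 after the RefSeq start) that hold each motif on either strand, for all promoters and for the S phase, mitosis, and cyclin, CDK and inhibitor members, with the number of promoters in the key. CHR elements were in 80.0% of mitosis promoters, and E2F sites in 35.7% of S phase promoters.

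The 16 cyclin, CDK and inhibitor genes went in both directions. In Gpr124-/-, 6 passed, with Ccnb1, Cdk1 and Cdk4 higher and Cdk6, Cdkn1a and Cdk2 lower, that is 3 of 16 in each direction beside 10.5% and 9.32% of all genes. In Gpr124ΔC/ΔC, 3 passed (18.8% against 4.09% of all genes), with Ccnb1 higher and Cdk6 and Cdkn1a lower. Median log2 fold changes were 0.18 in Gpr124-/- and -0.02 in Gpr124ΔC/ΔC. Between the mutants 1 passed, Ccnd3 (6.25% against 8.82% of all genes), and log2 differences ran from -0.38 for Ccne2 to 0.96 for Cdkn1c. With the letter as a term, none of the 6 calls in Gpr124-/- against WT held, while the median of the 16 was 0.23.

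Ccnb1, which encodes cyclin B1, had CPM of 140, 123, 129 and 131 in WT, 167, 170, 171 and 164 in Gpr124ΔC/ΔC and 169, 187, 190 and 181 in Gpr124-/-. Both mutants were above WT without overlap. For Ccnb1, log2 fold changes were 0.48 (SE 0.07, adjusted p = 0.000384, edgeR) in Gpr124-/- and 0.36 (SE 0.07, adjusted p = 0.0103) in Gpr124ΔC/ΔC, and its named copy Ccnb1-ps had a mean count of 27.5. Its partner Cdk1 had log2 fold changes of 0.31 (SE 0.07, adjusted p = 0.00892, edgeR) and 0.12 (SE 0.07, adjusted p = 0.531), and Ccnb2 and Ccna2 did not pass in either mutant.

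Cdkn1a, which encodes a CDK inhibitor that p53 is known to induce, had CPM of 222, 201, 226 and 193 in WT, 148, 156, 126 and 137 in Gpr124ΔC/ΔC and 143, 142, 125 and 165 in Gpr124-/-. All 8 mutant libraries were below all 4 WT libraries, and the mutants overlapped. On the log2 scale Cdkn1a fell by 0.55 in Gpr124-/- (SE 0.10, adjusted p = 0.00177, edgeR) and by 0.57 in Gpr124ΔC/ΔC (SE 0.10, adjusted p = 0.00546). On TPM, means were 267 ± 28.4 in WT, 189 ± 18.3 in Gpr124ΔC/ΔC and 187 ± 17.2 in Gpr124-/- (SD, n = 4; exact permutation p = 0.0286 for each mutant).

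Cdk6, a partner of the D-type cyclins, had the lowest TPM of the 50 genes (3.11 on average) against 493 for Cdk4, the highest. Its CPM was 19.8, 20.3, 21.5 and 23.4 in WT, 11.7, 14.0, 9.84 and 13.4 in Gpr124ΔC/ΔC and 12.3, 16.2, 8.44 and 10.8 in Gpr124-/-. All mutant libraries were below WT. On the log2 scale Cdk6 fell by 0.83 in Gpr124-/- (SE 0.18, adjusted p = 0.00592, edgeR) and by 0.79 in Gpr124ΔC/ΔC (SE 0.18, adjusted p = 0.027), while Cdk4 rose in Gpr124-/- (0.26, SE 0.07, adjusted p = 0.0249) and Cdk2 fell by 0.32 (SE 0.09, adjusted p = 0.0239). Cdk4 shares 18.6% of its exon bases with Tspan31 on the opposite strand.

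**Figure D4:**
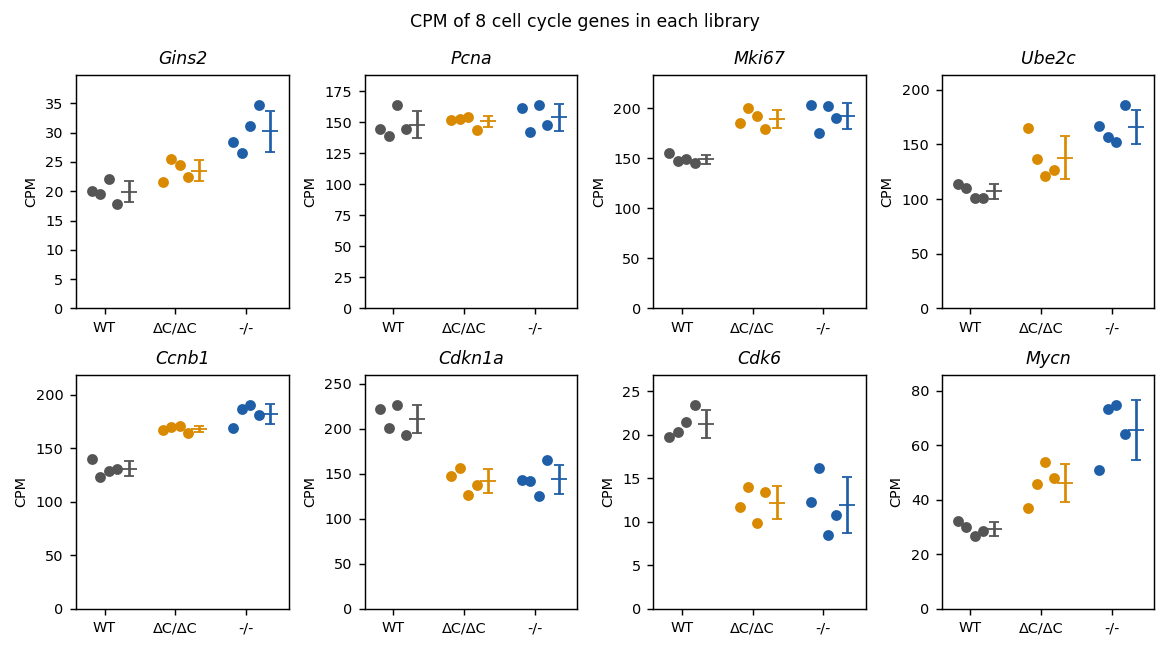
CPM (y axes, from 0) of 8 cell cycle genes in each of the 12 libraries, by genotype (WT, Gpr124ΔC/ΔC, Gpr124-/-), with the mean and SD of 4 libraries beside the points. Mki67, Ube2c, Ccnb1 and Mycn are above WT and Cdkn1a and Cdk6 below WT in all 8 mutant libraries, whereas Pcna overlaps in all genotypes.

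The D-type cyclins did not move as a group. Ccnd1 had CPM of 129, 133, 235 and 135 in WT, 113, 130, 129 and 130 in Gpr124ΔC/ΔC and 137, 253, 151 and 186 in Gpr124-/-. WT library KE8 and Gpr124-/- library ME1 stood far above the rest, and neither mutant passed against WT (log2 fold changes 0.20, adjusted p = 0.589, and -0.33, adjusted p = 0.577, edgeR). For Ccnd1, Gpr124-/- lay above Gpr124ΔC/ΔC without overlap on CPM and on TPM. The log2 difference of 0.53 between the mutants did not pass (adjusted p = 0.155, edgeR). Ccnd1 shares 23.4% of its exon bases with LTO1 on the opposite strand. Ccnd3 had CPM of 279, 285, 287 and 301 in WT, 243, 243, 258 and 257 in Gpr124ΔC/ΔC and 268, 339, 328 and 444 in Gpr124-/-. It was higher in Gpr124-/- than in Gpr124ΔC/ΔC (log2 difference 0.46, SE 0.12, adjusted p = 0.0327, edgeR), with no overlap between the 2 on CPM but overlap on TPM, and passed in neither mutant against WT. Ccnd2 had the highest log2 fold change of the group in Gpr124ΔC/ΔC, 0.43 (SE 0.13, adjusted p = 0.112, edgeR).

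Cdkn1c, an imprinted gene for a CDK inhibitor, followed the label letter. Its CPM was 284 and 287 in the J libraries of WT, 88.9 in KE8 and 132 in LE6. In Gpr124ΔC/ΔC it was 177 and 158 in the J libraries and 41.6 and 43.9 in the L libraries, and in Gpr124-/- it was 124, 251, 191 and 253. The log2 fold change in Gpr124ΔC/ΔC was -0.91 (SE 0.50, adjusted p = 0.478, edgeR). With the letter as a term it was -1.12 (SE 0.16, adjusted p = 0.000494), and within letters the log2 difference from WT was -0.77 among J libraries (2 against 2) and -1.61 among L libraries (2 against 1). Ccne1, which encodes cyclin E1, also had higher CPM in J than in L libraries, at 21.1 and 20.5 against 8.51 and 8.10 in Gpr124ΔC/ΔC. The remaining inhibitors Cdkn1b and Cdkn2c passed in no comparison, with log2 fold changes between -0.04 and 0.19.

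In this group a CHR element was in 2 of 14 promoters (14.3%), an E box, spelled CACGTG, in 3 (21.4%, against 7.15% of all promoters) and a CCAAT box in 7, against 37.4%. The stretches before the starts of Cdk1, chr10:69352939-69353162 on the minus strand, and Cdk4, chr10:127063285-127063533 on the plus strand, are shown because both kinases rose in Gpr124-/-. Capitals mark CHR elements and CCAAT boxes in Cdk1 and E boxes, the letters that MYC with MAX is known to bind, in Cdk4.

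Cdk1: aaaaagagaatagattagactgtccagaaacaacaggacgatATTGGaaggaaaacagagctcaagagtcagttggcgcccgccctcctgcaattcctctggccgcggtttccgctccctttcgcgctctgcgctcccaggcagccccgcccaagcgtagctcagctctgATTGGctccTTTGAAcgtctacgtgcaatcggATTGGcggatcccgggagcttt
Cdk4: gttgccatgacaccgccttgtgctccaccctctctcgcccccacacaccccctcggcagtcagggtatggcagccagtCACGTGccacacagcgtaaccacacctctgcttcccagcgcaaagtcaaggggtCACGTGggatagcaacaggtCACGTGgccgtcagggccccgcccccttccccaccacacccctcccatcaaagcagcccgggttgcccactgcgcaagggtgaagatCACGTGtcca

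Cdk1 has a CHR element 71 bases before its start, a second at 15 bases that is past the last base printed, and E2F sites at 178 and 130 bases in lower case. Cdk4 has E boxes at 172, 118, 98 and 11 bases. The other members of this group with an E box were Cdk6, which fell in both mutants, and Cdkn2c, which passed in no comparison.

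Mycn changed more than any other member in Gpr124-/-. Its CPM was 32.2, 30.2, 26.6 and 28.4 in WT, 37.1, 45.8, 54.0 and 47.9 in Gpr124ΔC/ΔC and 51.0, 73.5, 74.7 and 64.1 in Gpr124-/-. Both mutants were above WT without overlap, and the mutants overlapped only where KE4 of Gpr124-/- fell below LE2 of Gpr124ΔC/ΔC. The log2 fold change was 1.17 (SE 0.14, adjusted p = 8.1e-05, edgeR), a 2.24-fold rise, in Gpr124-/- and 0.66 (SE 0.14, adjusted p = 0.0187), a 1.57-fold rise, in Gpr124ΔC/ΔC. Gpr124-/- exceeded Gpr124ΔC/ΔC by 0.51 (SE 0.14, adjusted p = 0.0414). On TPM, means were 25.0 ± 1.94 in WT, 42.2 ± 9.71 in Gpr124ΔC/ΔC and 57.7 ± 9.21 in Gpr124-/- (SD, n = 4; exact permutation p = 0.0286 for each mutant against WT and 0.0571 between mutants).

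Myc had CPM of 38.2, 35.9, 45.7 and 50.5 in WT, 32.7, 36.2, 45.0 and 48.2 in Gpr124ΔC/ΔC and 30.2, 49.7, 58.9 and 59.5 in Gpr124-/-. All genotypes overlapped, with log2 fold changes of 0.22 (95% interval -0.22 to 0.66) in Gpr124-/- and -0.07 (-0.52 to 0.37) in Gpr124ΔC/ΔC. By mean TPM, Mycn was below Myc in WT (25.0 and 44.3) and above it in Gpr124-/- (57.7 and 52.6), with Myc at SDs of 9.18 and 14.1. The stretch before the start of Mycn, chr12:12941915-12942086 on the minus strand and ahead of the annotated first exon, is shown because it holds E2F sites, which are in capitals.

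Mycn: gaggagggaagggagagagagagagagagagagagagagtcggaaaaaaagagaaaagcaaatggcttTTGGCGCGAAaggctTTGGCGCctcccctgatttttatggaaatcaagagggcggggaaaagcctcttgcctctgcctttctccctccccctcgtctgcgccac

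The 3 E2F sites of Mycn begin 182, 179 and 167 bases before the RefSeq start, the first pair sharing bases on opposite strands. A CHR element begins 14 bases before the start, and the window holds no E box or CCAAT box.

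**Figure D5:**
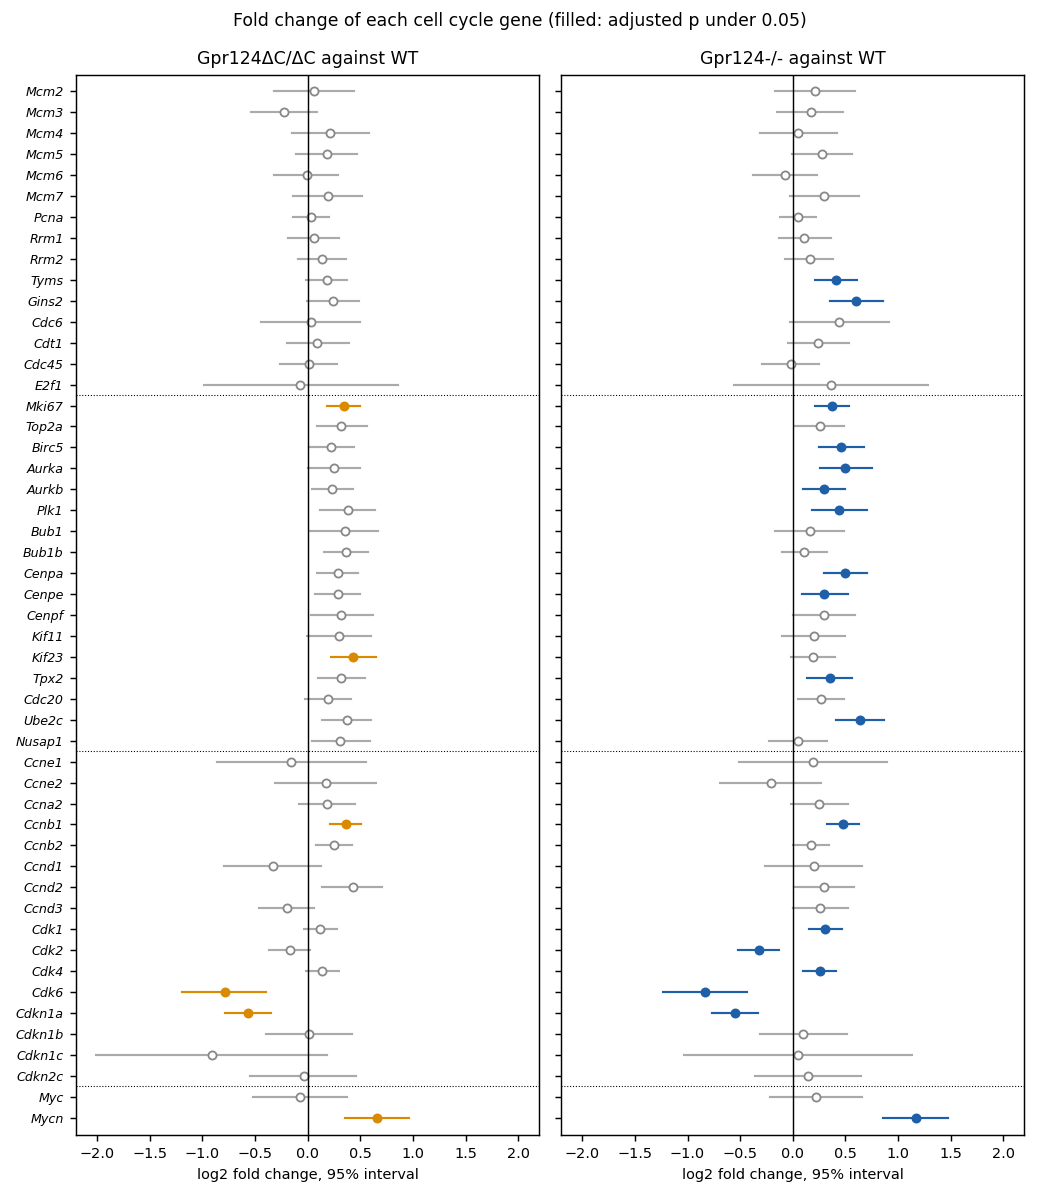
Log2 fold change (x axes, point) with its 95% interval (line) for each of the 50 genes in Gpr124ΔC/ΔC (left) and Gpr124-/- (right) against WT, with filled points where the adjusted p was under 0.05 and dotted lines between groups. All 17 mitosis genes are above 0 in both panels, Mycn has the highest value in both, and Cdk6 and Cdkn1a are below 0 in both.

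Genes that passed in both mutants against WT were Mki67, Ccnb1, Mycn, Cdk6 and Cdkn1a. All 18 members that passed in Gpr124-/- had the same sign in Gpr124ΔC/ΔC, in comparisons that share their WT libraries. Within label letters, all 17 mitosis genes were higher in Gpr124ΔC/ΔC than in WT among J libraries and among L libraries. Median log2 differences were 0.34 for J (2 against 2) and 0.30 for L (2 against 1, with LE6 as the only WT library). These are libraries of the same comparison, so the values describe it and are no separate test. For Gpr124-/-, only KE4 and KE8 share a letter. In that pair, which has no replicate, all 17 mitosis genes were higher in KE4 (median log2 difference 0.33), whereas 6 of the 15 S phase genes were higher (median -0.02). With the letter as a term, 3 members passed in Gpr124-/- (Mycn, Ube2c and Cenpf) and 7 in Gpr124ΔC/ΔC, the 6 above and Cdkn1c. In that edgeR fit for Gpr124-/-, none of the S phase genes passed and none had an unadjusted p under 0.05, and none of the cyclin, CDK and inhibitor genes passed while 6 had an unadjusted p under 0.05. The M libraries ME1, ME4 and ME5 are all Gpr124-/-, so with that term the Gpr124-/- fold changes rest on KE4 against KE8, and letter and genotype are otherwise confounded there.

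Further genes of the same processes, listed by name, were counted for context. With the label letter as a term, most of their calls in Gpr124-/- were lost: those in other replication genes went from 10 to 0, in other mitosis genes from 22 to 1, in G1/S control from 7 to 1, in MYC partners from 1 to 0, in p53 targets from 8 to 3 and in quiescence genes from 3 to 1. Calls over all genes fell too, from 1745 higher and 1550 lower to 604 and 421 of the 16637 tested. The median log2 fold change went from 0.27 to 0.31 over the other mitosis genes and from 0.25 to 0.10 over the other replication genes. The counts that follow are without that term. Of 52 other replication genes, 10 rose in Gpr124-/- (19.2% against 10.5% of all genes higher), led by Dut, which clears dUTP (log2 fold change 0.75, SE 0.15, adjusted p = 0.00295, edgeR), and Chaf1b, a histone chaperone subunit (0.52, SE 0.11, adjusted p = 0.0045), and none fell. In Gpr124ΔC/ΔC none of the 52 passed in edgeR, DESeq2 or limma, while 11 had an unadjusted p under 0.05 in edgeR. Of 74 other mitosis genes, 22 rose in Gpr124-/- (29.7% against 10.5% of all genes), led by Cdca2 (0.53, SE 0.08, adjusted p = 0.000359) and Pimreg (0.71, SE 0.10, adjusted p = 0.000359). In Gpr124ΔC/ΔC, 1 rose, the kinetochore gene Ndc80 (0.44, SE 0.11, adjusted p = 0.035), 1.35% against 1.85% of all genes. Of the 74, 34 had an unadjusted p under 0.05 in edgeR and 70 had a log2 fold change above 0. DESeq2 passed 11, all higher, where 472 of 30832 genes passed higher. Between the mutants, Tacc3 (0.52, adjusted p = 0.0115), Pimreg (0.47, adjusted p = 0.0147) and Hjurp were higher in Gpr124-/-, 4.05% against 4.93% of all genes. Medians over the other mitosis genes were 0.27 and 0.25 in the 2 mutants, and those over the other replication genes were 0.25 and 0.18.

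Of 34 tested genes of G1/S and checkpoint control, 7 passed in Gpr124-/- (20.6%, near the 19.8% of all genes), 6 higher and 1 lower, and 1 passed in Gpr124ΔC/ΔC (2.94% against 4.09%). Pkmyt1, a kinase that inhibits CDK1, rose (0.57, SE 0.13, adjusted p = 0.00775, edgeR). Cdkn2b, which encodes an inhibitor of CDK4 and CDK6, had TPM of 12.9 to 19.9 in WT, 0.817 to 4.33 in Gpr124ΔC/ΔC and 2.98 to 7.41 in Gpr124-/-. On the log2 scale it fell by 1.59 in Gpr124-/- (SE 0.38, adjusted p = 0.0101) and by 2.67 in Gpr124ΔC/ΔC (SE 0.41, adjusted p = 0.00234), with no overlap with WT. Among 10 partners and antagonists of MYC, Mxd1, a MAX-binding repressor, rose in Gpr124-/- (1.10, SE 0.21, adjusted p = 0.00271), where KE4 was lowest at 15.8 TPM against 28.4 to 34.9 in the other 3, and in none of the 10 did the test pass in Gpr124ΔC/ΔC by edgeR, DESeq2 or limma, nor was an unadjusted p under 0.05. Mxd1 was also higher in Gpr124-/- than in Gpr124ΔC/ΔC (0.99, adjusted p = 0.013). Between the mutants, no gene of G1/S control and no other replication gene passed in edgeR or limma and 1 of each in DESeq2, with 9 and 2 unadjusted p under 0.05 in edgeR.

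Cdkn1a fell while other targets of p53 went both ways. Of 18 such genes, 5 rose in Gpr124-/-, led by Phlda3 (2.35, SE 0.32, adjusted p = 0.000203, edgeR) and Bax (0.40, SE 0.09, adjusted p = 0.00883), and 3 fell, so that 44.4% passed against 19.8% of all genes. None passed in Gpr124ΔC/ΔC in edgeR, where 3 had an unadjusted p under 0.05, and 2 passed in DESeq2 and none in limma. Of 16 genes associated with quiescence, Gas2 (1.5, SE 0.25, adjusted p = 0.000867) and Btg1 (1.07, SE 0.23, adjusted p = 0.00485) rose and 1 fell in Gpr124-/-, and these 3 are 18.8% against 19.8% of all genes. None passed in Gpr124ΔC/ΔC in edgeR, DESeq2 or limma, with 1 unadjusted p under 0.05 in each. Between the mutants, 3 of the p53 targets were higher in Gpr124-/- and 1 lower (22.2% against 8.82% of all genes), led by Phlda3 (2.18) and Gadd45a (0.94, adjusted p = 0.0119), and Gas2 was higher (1.43, adjusted p = 0.004).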

How the data were processed

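CD31+ cells from 12 embryos (4 per genotype) were profiled with SMART-Seq V4 low-input libraries, poly(A) selection and paired-end HiSeq sequencing. Per the labels, bcl2fastq 2.17 and mm10 were used, whereas the aligner, counter and strand setting are not given in the sources used here. The authors deposited raw read counts per Ensembl gene for each library, and a table of TPM, which matched counts divided by gene length and rescaled to within 0.0001 TPM. A symbol table named 48970 of the 49315 IDs. Total counts per library, and the number of 4 embryos, limit the precision.

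Counts were tested with edgeR 4.0.16 (R 4.3.3): filterByExpr by genotype (minimum count 10, minimum total 15, large n 10, proportion 0.7), TMM factors, and 1 quasi-likelihood fit in which genotype was the term over all 12 libraries. Benjamini-Hochberg adjustment ran over 16637 genes. SE is the log2 fold change divided by the root of F. TPM means of named genes were compared by the exact two-sided permutation test (70 orders). Alternatives used DESeq2 1.42.0, limma 3.58.1 on log2(TPM + 1) or log2(TPM + 0.1), keeping genes whose TPM averaged 1 or more, or all genes, other scalings and filters, 2 genotypes per fit, the label letter and each library left out. TPM without Gm23935 was added after seeing the data. The edgeR model was tested on simulated data for Gpr124-/- against WT (16331 genes): it recovered 58 of 70 genes changed by 1.5 on the log2 scale and 27 of 70 changed by 0.75, and with the letter as a term 18 of 70 and 1 of 70.

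The members and all gene lists were chosen with earlier results of these data known. Library values were given for Mki67, Top2a, Pcna, Ccnd1, Cdkn1a, Cdkn1c, Myc, Mycn and the 2 members with the lowest p among those passing in each group and comparison. Fold changes were named for each passing member and each group's extremes, and for other lists for the 2 passing genes of lowest p. Values of other genes (Mcm3, E2f1, Ccne1, Cdk6, Bub1, Hjurp) were given after they were seen. Promoters came from RefSeq.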

Additional observations from a re-analysis of the deposited data

Results flagged for a closer look

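In 75 groups of 4 libraries, TPM of 25 named members was searched for a single library far from the other 3, which chance flags in about 1 of 20 groups. Plk1 in WT was 69.5 TPM in KE8 against 79.4 to 80.8 in the other 3. Ccnd1 in WT was 146 TPM in KE8 against 72.9 to 83.7. Ccnd1 in Gpr124ΔC/ΔC was 61.9 TPM in JE3 against 83.6 to 87.4. JE3 is the library in which Gm23935 took 14.1% of TPM, and its Ccnd1 CPM was 113 against 129 to 130.

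The effects of the 2 mutants differed for 2 members by the direct comparison of Gpr124-/- with Gpr124ΔC/ΔC in edgeR. The log2 difference was 0.46 for Ccnd3 (adjusted p = 0.0327) and 0.51 for Mycn (adjusted p = 0.0414). These calls were lost in many alternatives: Ccnd3 passed in 11 of 22 and Mycn in 8 of 22, and neither passed in limma, with only the 2 genotypes fitted or with the label letter as a term.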

How the results depend on the processing

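In Gpr124-/- against WT, 12 to 18 members passed under the alternatives, except for 3 once the label letter was a term and 1 with an absolute log2 fold change above 1. Leaving out 1 library gave 13 to 18. Mycn and Ube2c passed under all 22 alternatives, and 9 more lost their call only with the letter as a term (Tyms, Gins2, Mki67, Birc5, Aurka, Cenpa, Ccnb1, Cdk1 and Cdkn1a). Their log2 fold changes with that term, which rest on KE4 against KE8, were 0.16 for Tyms, 0.36 for Gins2, 0.33 for Aurka, 0.44 for Mki67, 0.44 for Birc5, 0.57 for Cenpa, 0.39 for Ccnb1, 0.28 for Cdk1 and -0.66 for Cdkn1a, so that Tyms, Gins2 and Aurka were smaller by over 1.5 times. Cenpe passed in 5 of 22, Aurkb in 9, Tpx2 in 12, Cdk4 in 13, Cdk2 in 14, Plk1 in 18 and Cdk6 in 20. In Gpr124ΔC/ΔC against WT, the count of 6 became 3 without the count filter, 2 in limma without the TPM filter and 0 with the fold threshold, and 2 to 9 with 1 library left out. It was 2 without LE6 and 3 without JE6, KE8, JE4 or LE2. Cdkn1a passed in 22 of 22, Ccnb1 in 20, Mycn in 16, Mki67 and Cdk6 in 13 and Kif23 in 12. Between the mutants, the count of 2 became 1 with the letter as a term. That 1 was Cdkn1c (log2 difference 1.59), which had not passed without the term, and not Ccnd3 or Mycn. The count was 0 with only the 2 genotypes, in each limma fit (log2(TPM + 1), log2(TPM + 0.1) and no filter) and with the fold threshold, and 0 to 2 with 1 library left out. It was 0 without JE4, LE5, ME1 or ME4 and 1 without JE1, JE6, LE6, JE3, LE2 or ME5. There Mycn passed in 8 of 22 and Ccnd3 in 11. In the results compared across fits, signs turned only for members that passed in neither fit. With the letter as a term, log2 fold changes in Gpr124-/- became -0.02 for Pcna, -0.78 for Ccnd1 and -0.60 for Myc. Mcm2 (-0.17), Mcm3 (-0.05), Mcm4 (-0.07), Mcm7 (-0.02), Rrm1 (-0.11), Cdc6 (-0.11), Ccnd3 (-0.10) and Cdkn1b (-0.37) also turned below 0. Against Gpr124ΔC/ΔC, Myc became -0.49 and Ccnd1 -0.69, among other turns. Myc in Gpr124ΔC/ΔC was 0.00 in the limma fits. With 1 library left out, values in Gpr124ΔC/ΔC ranged from -0.17 to 0.02 for Myc and from 0.00 to 0.08 for Pcna, and values in Gpr124-/- from -0.19 to 0.28 for Cdkn1c, from -0.03 to 0.17 for Nusap1 and from -0.01 to 0.47 for Ccnd1. The cause of these shifts was not tested. Gpr124-/- had the highest mean of the 3 genotypes for 29 members on TPM, 34 on CPM and 25 on TPM without Gm23935, and 3 of the 8 members given in every comparison passed the permutation test on each of these scales in Gpr124-/-. The labels number no replicates, and the label letter, shared by only some libraries of the genotypes compared, was the one block that could be fitted.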
